A study of Homo sapiens with 4 samples.

Results

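The AKR1 family of aldo-keto reductases was followed across ATO-treated and negative control cells of 2 human hepatocellular carcinoma (HCC) lines, Huh7 and Hep3B. Of the 8 genes listed (AKR1A1, AKR1B1, AKR1B10, AKR1C1, AKR1C2, AKR1C3, AKR1C4 and AKR1D1), 6 had a probe set in the annotation of the array. AKR1A1 and AKR1B1 were not paired with a probe set there and were not analysed here. The 6 genes were read by 13 of the 54613 probe sets that are not controls, 12 naming 1 gene and 1 naming AKR1C1 and AKR1C2 together. Each probe set pools several short oligonucleotides on the array, and 4 of the 13 end in _x_at, the mark of probes that may also bind related transcripts. Huh7 and Hep3B are established HCC lines. Treated cells of each line were given 3 μM arsenic trioxide (ATO) over 7 days, and negative control (NC) cells were given the solvent DMSO. One RNA profile on the Affymetrix Human Genome U133 Plus 2.0 array was deposited per line and treatment, 4 in all, as linear intensities with medians between 15.8 and 16.3. The family was selected on its ATO over NC ratios in each line and on the gap between the lines in these same profiles. Every ratio below is therefore a description with no test, and with 1 profile per condition none has an error of its own. All 8 hepatocyte and HCC markers looked at lay above the median of all intensities, 16, in the 4 profiles. Of these 8, 6 were lower and 2 higher with ATO in each line, and their summed intensity was 18563 with ATO and 21987 in the NC of Huh7, and 42332 with ATO and 54978 in the NC of Hep3B. Most of the Huh7 sum was SERPINA1 and TF, at 12710 and 6610 in the NC. Albumin (ALB) and APOH were higher with ATO in Huh7 only, and TTR and FGB in Hep3B only. ALB was at 358 with ATO and 155 in the NC of Huh7, and 10730 with ATO and 12803 in the NC of Hep3B. Of the leukocyte, endothelial and fibroblast markers, 0 of 3, 1 of 2 and 2 of 3 lay above that median in every profile, and the part of any marker in the results was not tested.

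Aldo-keto reductases use NADPH to reduce aldehydes and ketones to alcohols. In liver, AKR1C enzymes reduce steroids, prostaglandins and products of lipid peroxidation, and AKR1D1 and AKR1C4 also act in bile acid synthesis. Several human AKR1C genes and AKR1B10 are known targets of NRF2, the transcription factor that answers oxidative and electrophilic stress. AKR1C genes lie side by side on chromosome 10 and are close copies of each other, so that array probes and sequencing reads can be hard to assign to 1 of them.

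The closeness of these genes is visible in the bases before their starts. Promoter windows of 300 bases were taken from RefSeq (GRCh38.p14) for 7 of the 8 genes, 9 windows in all, since AKR1B1 and AKR1C3 have 2 starts each and AKR1B10 had no entry. The AKR1C2 window was identical to that of AKR1C1 at 288 of 292 aligned bases (98.6%). The windows of AKR1C3 matched AKR1C1 at 78.0% of 291 aligned bases for the first start and at 79.5% of 283 for the second, and that of AKR1C4 at 70.5% of 278. Any link between these bases and the response to ATO was not tested. The 150 bases before each start are shown with a CCAAT box, read as ATTGG on the gene's strand, in capitals.
AKR1C1 (chr10:4963265-4963414, plus strand): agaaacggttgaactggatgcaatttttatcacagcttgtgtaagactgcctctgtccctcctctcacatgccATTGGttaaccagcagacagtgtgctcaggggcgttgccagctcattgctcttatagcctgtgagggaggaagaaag
AKR1C2 (chr10:5003858-5004007, minus strand): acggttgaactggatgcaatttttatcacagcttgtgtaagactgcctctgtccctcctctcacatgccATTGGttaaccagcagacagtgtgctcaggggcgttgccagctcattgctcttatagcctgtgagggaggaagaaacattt
AKR1C3, first start (chr10:5048631-5048780, plus strand): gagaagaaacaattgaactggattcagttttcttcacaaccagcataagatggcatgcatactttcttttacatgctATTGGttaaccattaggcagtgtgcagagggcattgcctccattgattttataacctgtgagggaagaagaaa
AKR1C3, second start (chr10:5094264-5094413, plus strand): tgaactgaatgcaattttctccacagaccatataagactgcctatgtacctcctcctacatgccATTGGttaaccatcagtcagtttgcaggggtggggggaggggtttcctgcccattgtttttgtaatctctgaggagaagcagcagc
AKR1C4 (chr10:5196687-5196836, plus strand): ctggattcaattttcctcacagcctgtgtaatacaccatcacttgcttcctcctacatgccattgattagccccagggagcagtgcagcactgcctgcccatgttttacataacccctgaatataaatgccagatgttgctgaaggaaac

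The box began 77 bases before the start in AKR1C1, 81 in AKR1C2, and 73 and 86 in AKR1C3, and its letters were not in the AKR1C4 window. CCAAT on either strand was in 34.6% of all 35116 promoter windows, and in 6 of the 9 AKR1 windows. The 2 AKR1B1 windows overlap and hold the same box, which is counted in both. The core of the antioxidant response element, searched as TGACNNNGC on both strands, was in 0 of the 9 windows and in 13.3% of all windows. TGACTCA, the AP-1 motif, which the antioxidant core can overlap, was likewise in 0 of 9 windows, and in 4.95% of all. These letters are only a search of this stretch, and sites farther away were not looked at.

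AKR1C1 and AKR1C2 carried the largest ratios of the family, and in Hep3B the largest on the array. AKR1C1 is the main progesterone-inactivating reductase of the family, and AKR1C2 reduces the androgen dihydrotestosterone. In the brightest AKR1C1 probe set, 204151_x_at, the intensity was 6957 with ATO and 4228 in the NC of Huh7, and 5089 with ATO and 75.3 in the NC of Hep3B. Both ATO-treated profiles lay above both NC profiles, and the NC of Hep3B stood far below the other three. The ratio was 1.65 in Huh7 and 67.6 in Hep3B. In bulk RNA, more cells with the transcript and more transcript per cell cannot be told apart. The second AKR1C1 probe set of this kind, 216594_x_at, had 3550 with ATO and 1951 in the NC of Huh7, and 2473 with ATO and 52.8 in the NC of Hep3B, ratios of 1.82 in Huh7 and 46.8 in Hep3B.

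For AKR1C2, probe set 209699_x_at had an intensity of 4054 with ATO and 2469 in the NC of Huh7, and 2045 with ATO and 34.8 in the NC of Hep3B. Here the ATO-treated Hep3B profile stayed below the NC of Huh7, so the treatments overlapped across lines. Ratios were 1.64 in Huh7 and 58.8 in Hep3B. Probe set 211653_x_at had 3653 with ATO and 2119 in the NC of Huh7, and 1734 with ATO and 22.4 in the NC of Hep3B, ratios of 1.72 in Huh7 and 77.5 in Hep3B. In Hep3B these 4 _x_at probe sets of AKR1C1 and AKR1C2 held ranks 1 to 4 by ratio among 54613. In Huh7 they held ranks 432 to 796. At the gene level, AKR1C1 and AKR1C2 ranked 1 and 2 of 19775 genes in Hep3B, and the next gene, the glucose transporter SLC2A3, had a ratio of 13.7. The SLC2A3 intensities in Hep3B were 122 with ATO and 8.96 in the NC, the latter under the median of all intensities.

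**Figure D1:**
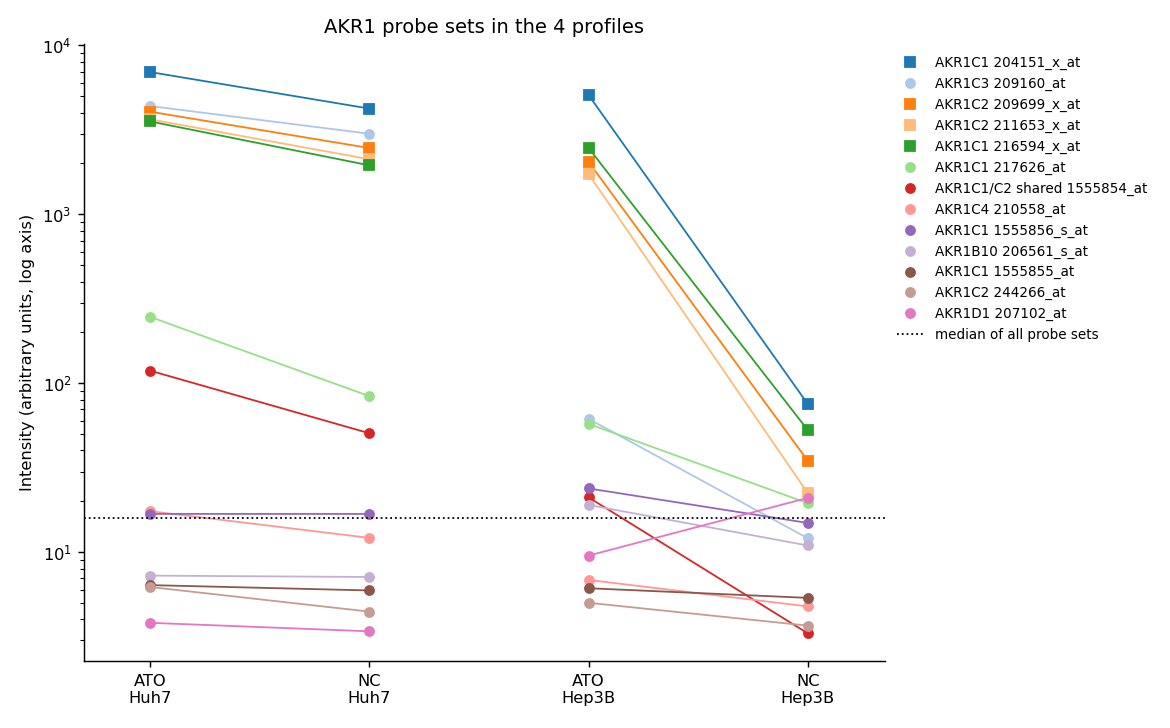
Intensity (y axis, log scale) of the 13 AKR1 probe sets in the ATO-treated and NC profiles of Huh7 and of Hep3B (x axis), 1 point per profile, squares for probe sets ending in _x_at, lines joining the profiles of a line. The 4 squares lie between 22.4 and 75.3 in the NC of Hep3B and at or above 1734 in the other profiles, and levels of different probe sets are not comparable with each other.

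The AKR1C1 and AKR1C2 probe sets that do not end in _x_at had smaller ratios in Hep3B than those that do. Probe set 217626_at had an intensity of 247 with ATO and 83.9 in the NC of Huh7, and 57.5 with ATO and 19.5 in the NC of Hep3B. Its ratio was 2.95 in both lines, so it was larger in Huh7 and far smaller in Hep3B than that of the _x_at probe sets. With 16 added to each value, the ratio of 217626_at was 2.63 in Huh7 and 2.07 in Hep3B. The probe set naming both AKR1C1 and AKR1C2, 1555854_at, had 119 with ATO and 50.6 in the NC of Huh7, and 21.1 with ATO and 3.31 in the NC of Hep3B, ratios of 2.35 in Huh7 and 6.39 in Hep3B. Its NC value in Hep3B was far under the median of all probe sets, and with 16 added to each value the Hep3B ratio was 1.92. Probe set 1555856_s_at of AKR1C1 stayed near that median, with 16.8 under both treatments in Huh7, and 23.8 with ATO and 14.9 in the NC of Hep3B, where its ratio was 1.60, or 1.29 with 16 added. The dim probe sets 1555855_at of AKR1C1 and 244266_at of AKR1C2 lay under the median in every profile, with values between 3.67 and 6.38, and had ratios between 1.08 and 1.40. In Hep3B, then, the ratio of AKR1C1 ran from 1.14 to 67.6 by probe set, and no file used here tells which transcripts each one bound.

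AKR1C3 was higher with ATO in Hep3B, with a smaller ratio than the _x_at probe sets of AKR1C1 and AKR1C2. The enzyme makes testosterone from androstenedione and forms prostaglandin F. Its only probe set, 209160_at, which does not end in _x_at, had an intensity of 4378 with ATO and 3000 in the NC of Huh7, and 61.6 with ATO and 12.1 in the NC of Hep3B. The 2 lines were widely apart, and within each line ATO was the higher profile. The ratio was 1.46 in Huh7, just under 1.5, and 5.09 in Hep3B, where the NC value was under the median and an added 16 brought the ratio to 2.76. AKR1C4, a liver enzyme that reduces steroids and bile acid precursors, was dim, with 17.5 with ATO and 12.2 in the NC of Huh7, and 6.85 with ATO and 4.77 in the NC of Hep3B. Only the ATO-treated Huh7 profile lay above the median, and the ratios, 1.44 in Huh7 and 1.43 in Hep3B, were nearly equal.

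AKR1B10 and AKR1D1 were dim on these arrays. AKR1B10 reduces retinal and lipid aldehydes and is often raised in HCC. Its intensity was 7.26 with ATO and 7.13 in the NC of Huh7, and 19.0 with ATO and 11.0 in the NC of Hep3B. The ratio was 1.02 in Huh7 and 1.74 in Hep3B, and with the added 16 it was 1.30 in Hep3B. AKR1D1 reduces the double bond of steroids and bile acid precursors that gives the liver its bent bile acids. Its intensity was 3.82 with ATO and 3.40 in the NC of Huh7, and 9.54 with ATO and 21.0 in the NC of Hep3B. It was the 1 member past a threshold in the lower direction, with a ratio of 0.455 in Hep3B against 1.12 in Huh7, and only its NC value in Hep3B lay above the median. With 16 added the Hep3B ratio was 0.691, no longer under 0.67.

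Counted with the study's thresholds, 1.5 and 0.67, 6 of the 13 AKR1 probe sets were higher and 0 were lower with ATO in Huh7, where 2.85% and 2.81% of all probe sets were past them. In Hep3B 9 were higher and 1 was lower, beside 4.0% and 4.01% of all probe sets. The median log2 ratio was 0.55 in Huh7 and 1.56 in Hep3B over the AKR1 probe sets, and 0.02 in both lines over all probe sets. With 1 probe set per gene, the brightest, 2 of the 6 genes were higher in Huh7 and 0 lower, beside 3.21% and 3.25% of 19775 genes. In Hep3B 4 genes were higher (AKR1C1, AKR1C2, AKR1C3 and AKR1B10) and 1 lower (AKR1D1), beside 5.04% and 4.02% of all genes. AKR1C1 and AKR1C2 were higher in both lines and no member was lower in both, as were 0.804% and 0.587% of all genes. The members were picked on these ratios, so nothing is read from these shares. With _x_at probe sets left out, AKR1C1 was the 1 gene past 1.5 in both lines, through 217626_at, and AKR1C2 was read only by a dim probe set.

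**Figure D2:**
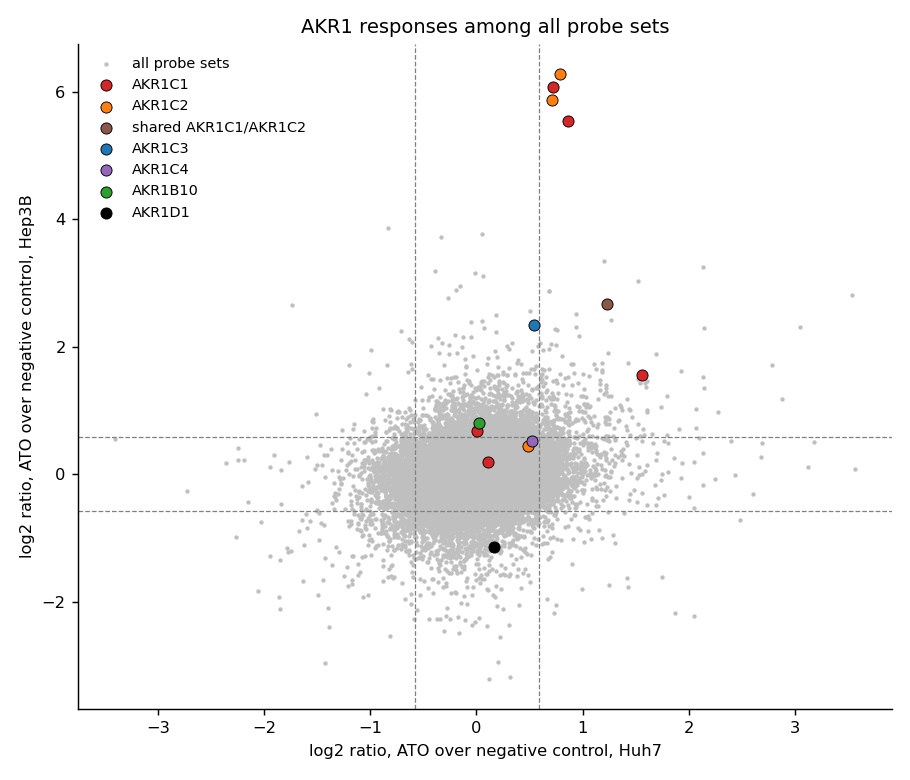
Log2 ratio of ATO over NC on the x axis for Huh7 and on the y axis for Hep3B, grey points for all 54613 probe sets that are not controls and coloured points for the AKR1 probe sets, dashed lines at ratios of 1.5 and 0.67. The 4 _x_at probe sets of AKR1C1 and AKR1C2 lie above 5.5 on the Hep3B axis and below 0.87 on the Huh7 axis.

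The gap between the lines narrowed with ATO for some members and not for others. Among NC profiles, Huh7 over Hep3B, the ratio was 56.2 for AKR1C1 (204151_x_at), 71.1 for AKR1C2 (209699_x_at) and 248 for AKR1C3. Among ATO-treated profiles it was 1.37, 1.98 and 71.1 for the same probe sets. Over the 4 _x_at probe sets of AKR1C1 and AKR1C2 the ratio was between 1.37 and 2.11 with ATO and between 37.0 and 94.8 in the NC, whereas AKR1C3 was far lower in Hep3B under both treatments. In 217626_at of AKR1C1 the gap was 4.30 with ATO and 4.31 in the NC, and for AKR1C4 it was 2.55 in both. AKR1B10 and AKR1D1 were lower in Huh7, with ratios of 0.382 and 0.400 with ATO and of 0.651 and 0.162 in the NC. In the ATO-treated profiles 6 of the 13 probe sets were above 1.5 and 2 under 0.67, beside 12.4% and 12.8% of all probe sets. In the NC profiles 8 were above and 2 under, beside 13.2% and 13.3%. AKR1C3 ranked 2 of 54613 probe sets by the NC ratio without an offset. With 16 added to each intensity, the AKR1C3 ratio was 107 in the NC and 56.7 with ATO. In the same order, the ratio was 46.5 and 1.37 for 204151_x_at, and 49.0 and 1.97 for 209699_x_at. For 217626_at it was 2.82 and 3.58, and for AKR1C4 1.36 and 1.47, no longer above 1.5. AKR1B10 had 0.858 and 0.664, and AKR1D1 0.525 and 0.776. AKR1B10 was then under 0.67 only with ATO, and AKR1D1 only in the NC.

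**Figure D3:**
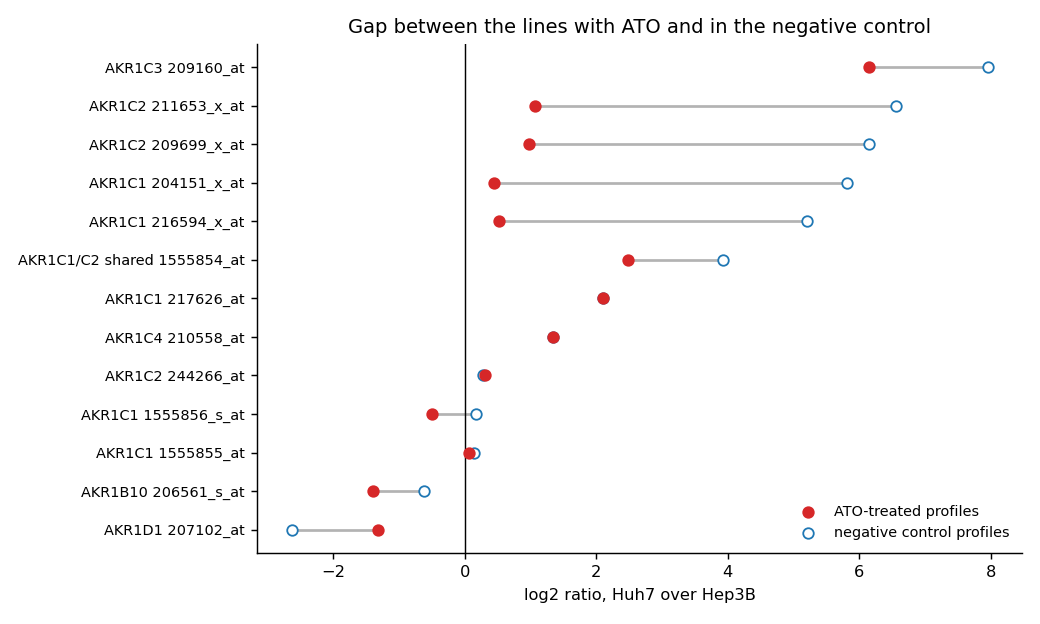
Log2 ratio of Huh7 over Hep3B (x axis) for each AKR1 probe set (y axis), filled points for the ATO-treated and open points for the NC profiles. The _x_at probe sets lie at or under 1.08 with ATO and over 5 in the NC, AKR1C3 lies above 6 in both, and the 2 points coincide for 217626_at and AKR1C4.

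The difference in response between the lines, the log2 ratio in Hep3B minus that in Huh7, was 5.36 for AKR1C1 (204151_x_at), 4.69 for 216594_x_at, and 5.16 and 5.49 for the AKR1C2 probe sets 209699_x_at and 211653_x_at. These were among the 5 largest differences in size on the array. AKR1C3 had 1.80, which 0.306% of all probe sets exceeded in size, and the shared probe set 1555854_at had 1.44, which 0.707% exceeded. With 16 added these were 0.92 for AKR1C3 and -0.07 for 1555854_at, while the 4 _x_at probe sets lay between 4.32 and 5.09. The differences of 217626_at, AKR1C4 and 244266_at were 0.00, 0.00 and -0.03. With 16 added they were -0.35, -0.11 and -0.02 in the same order. For AKR1D1 the difference was -1.30, and -0.56 with 16 added. The median difference was 0.77 over the 13 AKR1 probe sets and 0.00 over all probe sets, and 0.37 over the AKR1 probe sets with 16 added. With 1 profile per cell of the design, a difference between lines and noise cannot be told apart.

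Related genes were set beside the family through lists chosen with earlier results of these data known. The counts of every list stand beside the shares of all 19775 genes, 3.21% higher and 3.25% lower in Huh7, and 5.04% and 4.02% in Hep3B. In both lines 0.804% of all genes were higher and 0.587% lower. The list of NRF2 target enzymes also holds carriers such as SLC7A11. Of its 22 measured genes, 13 were above 1.5 in Huh7, 14 in Hep3B and 10 in both, with 0 under 0.67 in either line. Their median log2 ratio was 0.67 in Huh7 and 0.87 in Hep3B, beside 0.01 and 0.04 over all genes. HMOX1, which breaks down heme, had an intensity of 2507 with ATO and 303 in the NC of Huh7, and 479 with ATO and 96.5 in the NC of Hep3B, ratios of 8.28 for Huh7 and 4.97 for Hep3B. In the same order of lines, the cystine carrier SLC7A11 had ratios of 1.96 and 4.48, and GCLM, the modifier subunit of glutamate-cysteine ligase in glutathione synthesis, 2.15 and 3.30. The difference of these 22 genes between the lines ran from -0.74 to 1.46 on the log2 scale with a median of -0.03. AKR1C1 and AKR1C2, read by their _x_at probe sets, lay above that range. The other AKR1C1 probe sets, 217626_at, 1555856_s_at and 1555855_at, lay inside that range, at 0.00, 0.68 and 0.08. So did the dim AKR1C2 probe set 244266_at, at -0.03, and the shared 1555854_at, at 1.44. AKR1C3, at 1.80, lay above it as measured but not with 16 added, where it was at 0.92 and the list ran from -0.85 to 1.41.

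Of the other aldo-keto reductases, AKR1E2, AKR7A2, AKR7A3 and the potassium channel subunits KCNAB1, KCNAB2 and KCNAB3, 0 of 6 were past a threshold in either line. The ones that differed most between treatments were KCNAB2, at 1.24 in Huh7 and 1.14 in Hep3B, AKR7A3, an aflatoxin aldehyde reductase read by an _x_at probe set, at 0.763 and 0.967, and the dim KCNAB3, at 1.11 and 1.15. AKR1E2 and KCNAB3 lay under the median of all intensities in every profile, and KCNAB1 in all but the NC of Hep3B. At such levels a probe set can miss a change. Among 25 other carbonyl-handling enzymes, 2 were higher and 2 lower in Huh7, 5 higher and 2 lower in Hep3B, and 1 was higher in both. That gene was the aldehyde oxidase AOX1, whose ratio was 1.55 for Huh7 and 1.83 for Hep3B, from values between 9.38 and 21.8. The alcohol dehydrogenase ADH6 stood at 0.412 for Huh7 and 0.910 for Hep3B, and the carbonyl reductase CBR1, also on the NRF2 list, 1.31 and 1.59.

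Gene lists around the substrates of the family had medians near 0 on the log2 scale. The medians were -0.11 in Huh7 and 0.01 in Hep3B for steroid and bile acid enzymes, and 0.05 and -0.00 for the retinoid list. The polyol and methylglyoxal list had -0.13 and 0.06. Part of the genes of these lists, and of the carbonyl-handling list, lay under the median of all intensities in every profile. Of 28 steroid and bile acid enzymes, 0 were higher and 3 lower in Huh7, and 2 were higher and 3 lower in Hep3B. SULT2A1, which sulfates bile acids and steroids, was the 1 gene lower in both, with ratios of 0.516 for Huh7 and 0.450 for Hep3B. Its intensity was 12.8 with ATO and 24.9 in the NC of Huh7, and 155 with ATO and 344 in the NC of Hep3B. The ATO value in Huh7 lay under the median of all intensities. With 16 added to each intensity, SULT2A1 was no longer under 0.67 in both lines. BAAT, which joins bile acids to amino acids, stood at 1.44 for Huh7 and 1.98 for Hep3B, and HSD11B2, which inactivates cortisol and was dim in Huh7, 0.648 and 0.683. Of 14 measured genes on the retinoid list, which holds enzymes and binding proteins such as RBP4, 1 was higher and 2 were lower in Huh7. In Hep3B 0 were higher and 1 was lower. The retinoic acid hydroxylase CYP26A1 had 0.481 in Huh7 and 1.29 in Hep3B, the retinol dehydrogenase RDH11 0.606 and 0.783, and RDH10 0.736 and 0.666. Of 8 genes around the polyol and methylglyoxal pathways, 1 was lower in Huh7, hexokinase HK2, at 0.507 there and 0.820 in Hep3B. HK1 had 0.923 in Huh7 and 0.718 in Hep3B, and the glyoxalase HAGH 1.10 and 1.36.

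**Figure D4:**
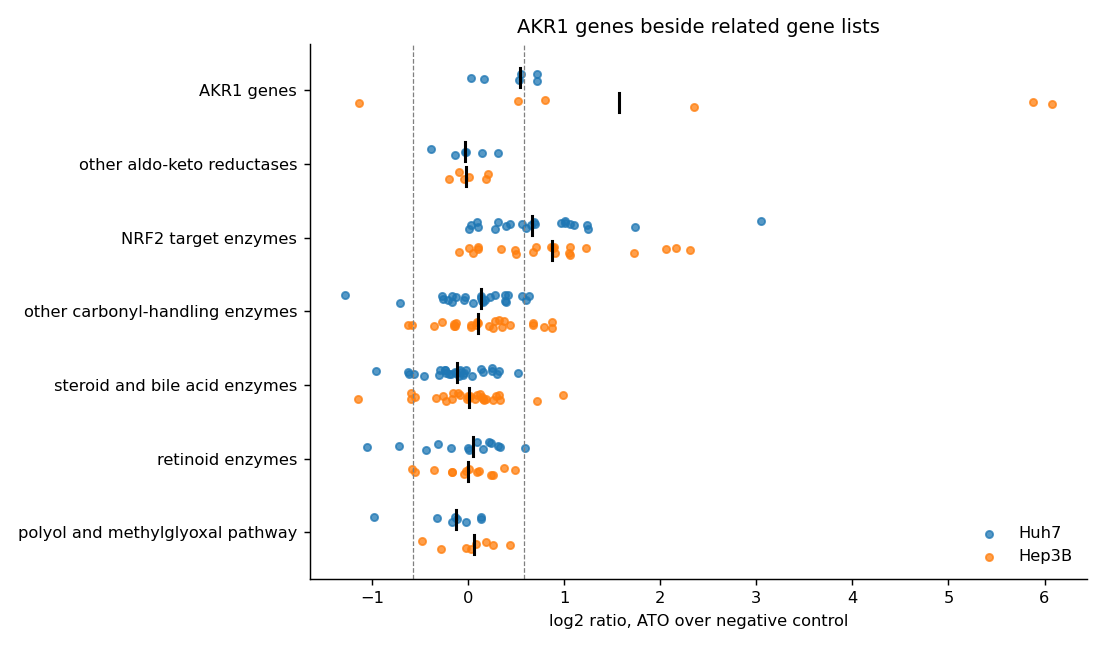
Log2 ratio of ATO over NC (x axis) for the 6 AKR1 genes and 6 related lists (y axis), 1 point per gene and line, black bars for medians, dashed lines at ratios of 1.5 and 0.67. AKR1C1 and AKR1C2 in Hep3B stand near 6, and the highest gene of the NRF2 target enzymes is HMOX1 in Huh7 at 3.05.

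Genes beside the AKR1C cluster had ratios nearer 1 in Hep3B than those of AKR1C1, AKR1C2 and AKR1C3. In RefSeq order on chromosome 10, the measured neighbours were LINC00705, AKR1E2 and the pseudogene AKR1C6P on one side and UCN3, TUBAL3 and NET1 on the other. Their ratios were between 0.745 and 1.0 in Hep3B and between 0.876 and 1.89 in Huh7. The highest was TUBAL3, a tubulin-like gene, with an intensity of 55.1 with ATO and 29.2 in the NC of Huh7, and 8.61 with ATO and 9.49 in the NC of Hep3B. The other 5 neighbours had no ratio past 1.5 or 0.67 in either line. Only NET1 lay above the median of all intensities in Hep3B, at 193 with ATO and 258 in the NC. The rest were under that median in both Hep3B profiles, where a dim probe set can miss a change. On chromosome 7, LOC101928861, LRGUK and SLC35B4 precede AKR1B10 and BPGM, CALD1 and AGBL3 follow it. Of these, CALD1, a cytoskeletal protein, stood at 0.879 for Huh7 and 0.608 for Hep3B, and the dim AGBL3 at 0.777 and 0.645. AKR1D1 lies between LOC105375527, DGKI and CREB3L2 and TRIM24, SVOPL and TMEM213, among which only the dim SVOPL touched a threshold, at 1.5 for Huh7 and 1.07 for Hep3B.

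**Figure D5:**
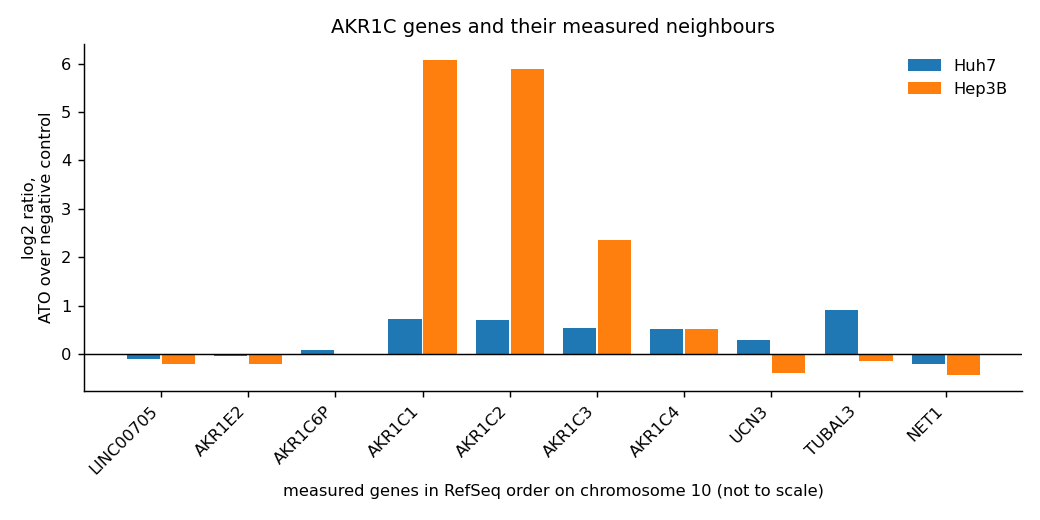
Log2 ratio of ATO over NC (y axis) in Huh7 and Hep3B for the AKR1C genes and the 3 measured genes on either side, in their order on chromosome 10 (x axis, not to scale), 1 bar per gene and line. AKR1C1, AKR1C2 and AKR1C3 stand above 2 in Hep3B and AKR1C4 at 0.52, while no neighbour is above 0.01 in Hep3B. All neighbours except NET1 were dim in Hep3B.

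The genes outside the family whose 4 values were most like those of AKR1C1 were the gap junction gene GJA1, S100P, ID3, GCLM and MT1X. Likeness was the Euclidean distance between profiles of log2(intensity + 16) centred on their mean over the 4 profiles. The distance was 2.30 for GJA1 and between 2.64 and 3.14 for the others, where a flat profile would lie at 5.11 from AKR1C1. GJA1 had 2599 with ATO and 1620 in the NC of Huh7, and 1167 with ATO and 158 in the NC of Hep3B, giving ratios of 1.60 for Huh7 and 7.37 for Hep3B. For AKR1B10, which hardly varied on that scale, the nearest were COMMD5, VARS1, DOCK1, NDUFV1 and INTS9, at distances between 0.01 and 0.04.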

How the data were processed

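The arrays measured RNA of ATO-treated and NC cells of Huh7 and Hep3B, with 1 profile each. Per the study's methods, the authors summarised arrays by Robust Multi-array Average, took logs and applied quartile normalization with simpleaffy in R. Values were deposited as a linear intensity for each probe set, from 2.24 to 14163.5, so they were returned from the log scale in a step that is not given in the sources used here, nor is it given whether a profile is 1 array. Groups were taken from the sample labels. Of 54675 probe sets, 62 controls were left out. The platform annotation named 1 gene for 41091 of the rest, several for 1801 and none for 11721. Each of 19775 genes was read from the probe set with the highest mean that names it alone. Ratios were taken from the intensities and called past 1.5 or 0.67. No test was run, because each condition has 1 profile. No detection call was used, and the number of arrays limits the precision. The text names all members, the 3 genes of each list with the largest mean absolute log2 ratio, the 5 genes nearest AKR1C1 and AKR1B10 and 3 neighbours on each side of AKR1C, AKR1B10 and AKR1D1. SLC2A3 was named after its value was seen. Members and lists were chosen with earlier results of these data known. The ratio and call steps were tested on simulated data. Work was done in Python 3.11.15 with pandas 2.3.3, numpy 2.4.6 and matplotlib 3.10.9. Alternatives covered normalization, an offset, stricter ratios, _x_at probe sets, dim values and the choice of probe set.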

Additional observations from a re-analysis of the deposited data

Results flagged for a closer look

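AKR1D1 was lower with ATO in Hep3B only, with intensities of 3.82 with ATO and 3.40 in the NC of Huh7, and of 9.54 with ATO and 21.0 in the NC of Hep3B. Both Huh7 values were near the array minimum of 2.24, and their ratio was 1.12, or 1.02 with 16 added. The log2 ratio in Hep3B minus that in Huh7 was -1.30, and -0.56 with 16 added to each intensity. The difference was not tested, since each condition has 1 profile, and 3 of the 4 values lay under the median of all probe sets.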

How the results depend on the processing

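Among the AKR1 probe sets, with _x_at probe sets left out, 2 were above 1.5 in Huh7, 5 in Hep3B and 4 between the NC lines, where 6, 9 and 8 were before, and 1 AKR1 gene in place of 2 was above 1.5 in both lines. At ratios of 2 and 0.5, 2 AKR1 probe sets were higher in Huh7, 1 was lower between the NC lines, 0 AKR1 genes were higher in both lines, and the related gene lists held 5 genes higher and 0 lower in both, where 11 and 1 were before. On log2(intensity + 16), 0 AKR1 probe sets were lower in Hep3B, 1 was lower between the NC lines and 0 related genes were lower in both lines. With dim features not called, 1 AKR1 probe set was lower between the NC lines. With quantile normalization 2 related genes were lower in both lines, where 1 was before. The lower AKR1 probe set lost in Hep3B was that of AKR1D1, and the related gene lost on log2(intensity + 16) was SULT2A1. The median difference between the lines over the AKR1 probe sets was 0.37 on log2(intensity + 16), where it was 0.77 before. The other recomputed counts were within 1.5 times the reported ones. Single log2 ratios of members shifted by at most 0.08 with quantile normalization and 0.04 with columns scaled to the same median, and by up to 2.15 with the added 16, where low values are compressed. The near-zero log2 ratios in Huh7 of 1555856_s_at (0.00) and AKR1B10 (0.03) turned negative under scaling to the same median (-0.04 and -0.01), and the first also with quantile normalization (-0.04). No replicate could be left out and no paired fit made with 1 profile per condition.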
